A study of Homo sapiens with 48 samples.

Results

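Exposure to TEP was compared with its solvent control, DMSO, after 8 days in which H9 embryonic stem cells differentiated. The comparison rests on 4 of the 48 libraries of the series, taken by their labels: TEP replicates 1 and 2, and DMSO replicates 1 and 2, all without S9. Every group was made from H9, a human line of WT genotype established from an embryo, grown as a monolayer on 24-well plates in E6, a medium free of added growth factors that maintain stem cells. The TEP cultures received TEP for the whole 8 days and the DMSO cultures received solvent. The other groups used here are ACE, CYC, IMI, TDCIPP and TPHP without S9, with 2 libraries each. A further 9 groups, taken to be phenolic antioxidants and their products (TBHQ, DTBP, DG, BHA, BHT with BHT_COOH and BHT_CHO, and AO_2246 with AO168_O), served as a second reference. The labels give no doses, no culture batches and only abbreviations of the compounds. TEP, TPHP and TDCIPP commonly stand for phosphate triesters with ethyl, phenyl and chlorinated propyl arms, which are used as flame retardants and plasticisers. ACE, CYC and IMI were taken, as an assumption, to be the compounds that the labels call NEOs. H9 is 1 cell line. Nothing in the labels tells whether the 2 replicates of a group came from separate cultures, so p-values measure the spread between libraries.

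Embryonic stem cells that lose the signals of stem cell medium turn towards ectoderm. Where BMP signalling is low, they become neural ectoderm, which carries regulators such as SOX2, SIX3 and the ZIC genes and goes on to form brain and eye. Where BMP signalling is high, they become surface ectoderm, placode or amnion, which carry TFAP2A, GATA3 and simple epithelial keratins.

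The 4 libraries held 19012111 to 20014803 counts and 17276 to 17329 genes with a count, and over all 48 libraries totals ran from 17918867 to 20096130 counts. Levels are given as CPM, counts scaled to library size with TMM factors. They compare a gene between libraries and not genes of different length with each other. At day 8 the libraries no longer had the levels of the stem cell state: POU5F1, a regulator of pluripotency, stood at 876 and 523 CPM in DMSO and at 2916 and 3349 CPM in the day 0 libraries (scaled together with all 48). In the 2 TEP libraries POU5F1 stood at 528 and 748 CPM, within the range of DMSO. No source tells whether reads kept their strand, so counts of antisense or overlapping genes, near-identical copies and read-through transcripts are uncertain.

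In TEP, part of the listed genes of BMP signalling, surface ectoderm and amnion were higher than in DMSO. Part of those of the anterior neural plate and eye field were lower. Without TEP replicate 1, 4 of 5 changed amnion and trophoblast genes and all 13 changed neural ectoderm genes missed the threshold used below. The lists were chosen with earlier results of these data known. Of 16113 genes tested, 2041 changed (12.7%, adjusted p under 0.05, edgeR quasi-likelihood test), 1092 of them higher (6.78%) and 949 lower (5.89%). At least 2-fold changes were found in 698 genes (4.33%), of which 381 were higher (2.36%) and 317 lower (1.97%). The median log2 fold change of all genes was 0.00. The libraries of TEP and DMSO did not overlap for 8012 genes (49.7%), though with 2 libraries a side random order alone parts many genes. The count of changed genes rested unequally on the libraries: it was 206 without TEP replicate 1, 2463 without TEP replicate 2, 605 without DMSO replicate 1 and 1870 without DMSO replicate 2. In the bulk libraries used here, fewer cells of a type and less RNA per cell cannot be told apart.

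The gene with the smallest p was SPHK1, the kinase that makes sphingosine 1-phosphate. It stood at 4.73 and 4.49 CPM in DMSO and at 27.6 and 23.7 CPM in TEP, a log2 fold change of 2.48 (SE 0.27, edgeR adjusted p = 1.93e-05). Both TEP libraries lay far above both DMSO libraries, and the replicates of each group lay close together. CACNG4, an auxiliary subunit of calcium channels and AMPA receptors, rose from 15.1 and 11.7 CPM to 91.7 and 61.5 CPM (log2 fold change 2.51, SE 0.32). SLC7A3, a transporter of cationic amino acids, rose from 118 and 121 CPM to 478 and 444 CPM (1.95, SE 0.29). PDGFA, a growth factor ligand, rose from 48.3 and 45.7 CPM to 125 and 102 CPM (1.27, SE 0.17). In each of these genes the lower TEP library was above the higher DMSO library, which the rule for naming genes required. ATP6V0D2, a subunit of the vacuolar proton pump, had the largest fold change among the 15 higher genes first by p. Its level was 2.52 and 1.43 CPM in DMSO and 67.0 and 38.8 CPM in TEP (4.74, SE 0.67, edgeR adjusted p = 0.0002). The other genes of the 15 were the transcription factors GATA2 (2.31) and GATA5 (1.93), the adaptor SHB (1.35), TRIML2 (2.19), SAMD11 (1.93), SMAGP (1.27), the ubiquitin ligase NEURL1 (2.18), the tight junction gene CLDN9 (2.26), the actin-binding TAGLN2 (1.48) and the guidance ligand SEMA6D (2.42), each with its log2 fold change.

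Among the genes that fell, PTN had the smallest p. PTN encodes pleiotrophin, a secreted growth factor of neural tissue, and fell from 29.2 and 21.4 CPM to 9.79 and 10.6 CPM (log2 fold change -1.31, SE 0.16, edgeR adjusted p = 5.87e-05). PTPRZ1, a receptor of pleiotrophin, fell from 97.7 and 91.6 CPM to 32.4 and 52.7 CPM (-1.15, SE 0.20). CAPN6, a calpain without protease activity, had the largest fall of the 15 lower genes first by p, from 266 and 289 CPM to 35.3 and 49.5 CPM (-2.71, SE 0.42). For all 3 genes the DMSO libraries lay wholly above the TEP libraries, which the naming rule required. P4HA1, a subunit of the collagen prolyl hydroxylase, fell by 1.04 on the log2 scale, from 63.2 and 52.3 CPM to 24.0 and 32.1 CPM. IFIT1, an interferon-induced gene, fell by 2.42, from 11.2 and 14.2 CPM to 2.14 and 2.61 CPM. The remaining lower genes of the 15 were DPYSL5 and FEZ1, which act in the outgrowth of neurites (-1.52 and -2.32), the lysosomal lipase LIPA (-1.09), the receptor GPR176 (-2.12), the antagonist of growth factor receptors LRIG1 (-1.40), the transcription factor ETV1 (-1.02), the sorting receptor SORCS1 (-1.44), ASPH (-1.15), TMSB15A (-1.66) and LRRC20 (-1.43). Of these 30 genes, 24 passed whichever of the 4 libraries was left out. PTPRZ1, FEZ1, LRIG1, ETV1, SORCS1 and ASPH did not pass without TEP replicate 1, with edgeR adjusted p from 0.0511 to 0.068.

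**Figure D1:**
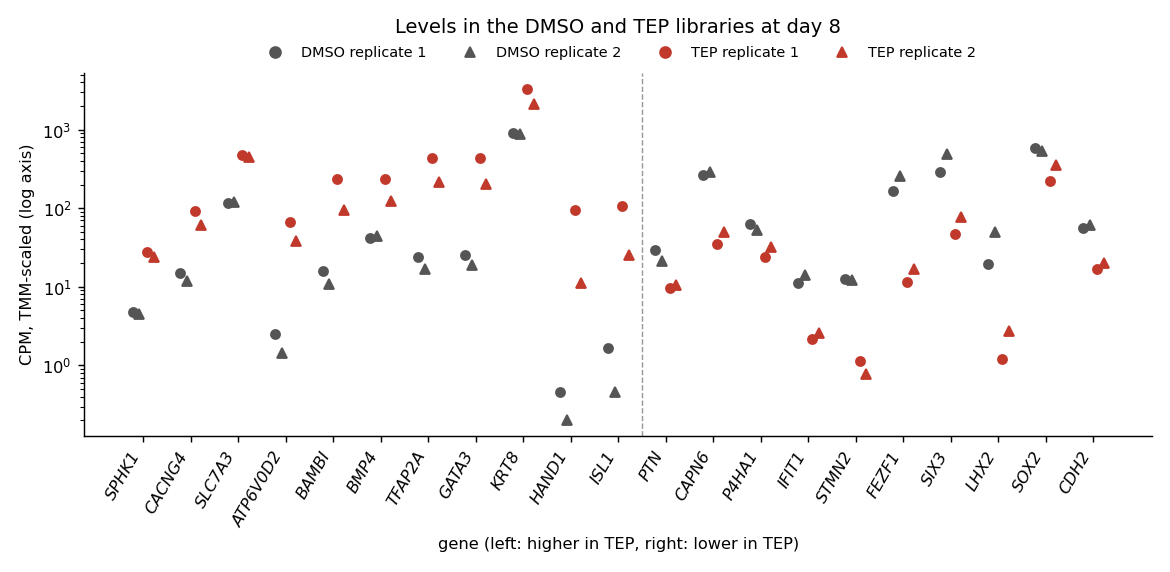
CPM on a log axis of 21 genes in the 2 DMSO libraries (grey) and the 2 TEP libraries (red), circles for replicate 1 and triangles for replicate 2. Genes left of the dashed line were higher in TEP and genes right of it lower, and for SPHK1, SLC7A3 and PTN the 2 TEP libraries lie close together while for HAND1 they stand at 95.4 and 11.2 CPM.

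Of the list of BMP feedback genes and targets, 11 of 16 members were higher in TEP and none was lower. The median log2 fold change was 1.35 against 0.00 over all genes. Of all genes tested, 6.78% were higher and 5.89% lower, the shares to set beside this and each later list. BMP4, the ligand itself, stood at 41.5 and 44.7 CPM in DMSO and at 233 and 123 CPM in TEP (2.05, SE 0.32, edgeR adjusted p = 0.000346). BAMBI, a decoy receptor that BMP signalling turns on, rose from 15.9 and 10.9 CPM to 234 and 94.4 CPM (3.61, SE 0.55). In both genes TEP replicate 1 was the highest library, TEP replicate 2 came next, and the groups did not overlap. The ID genes, inhibitors of basic helix-loop-helix factors and direct BMP targets, all rose: ID1 by 1.31, ID2 by 1.40, ID3 by 0.95 and ID4 by 1.40. ID1 stood at 395 and 332 CPM in DMSO and at 1011 and 789.9 CPM in TEP. The inhibitory SMAD6 (1.51) and SMAD7 (1.16), SMAD9 (1.56) and the homeobox genes MSX1 (2.49) and MSX2 (2.46) rose as well. The ligands BMP2 (-0.69) and BMP7 (-0.28), the antagonists NOG (-0.29) and GREM1 (-0.85), and ATOH8 (-1.04) did not pass. BAMBI, BMP4, ID1, ID2, ID4 and SMAD6 passed whichever library was left out. The other 5 of the 11 did not pass without TEP replicate 1, with edgeR adjusted p from 0.12 to 0.531. Without DMSO replicate 1 ID3, MSX1 and SMAD9 did not pass (0.0962 to 0.176), and without DMSO replicate 2 ID3 and MSX1 did not (0.0584 to 0.098).

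Of the surface ectoderm and placode list, 13 of 22 tested members were higher in TEP and none was lower, with a median log2 fold change of 1.25. TFAP2A, a transcription factor of surface ectoderm and neural crest, stood at 23.7 and 16.9 CPM in DMSO and at 433 and 215 CPM in TEP (3.99, SE 0.65, edgeR adjusted p = 0.00102). GATA3, which acts with TFAP2A in surface ectoderm, amnion and trophoblast, stood at 25.2 and 18.7 CPM in DMSO and at 431 and 201 CPM in TEP (3.85, SE 0.55). TFAP2A and GATA3 kept their calls whichever library was left out, and in both of them TEP replicate 1 was the highest of the 4 libraries. The keratins KRT8 (1.58), KRT18 (1.58) and KRT19 (1.33), which build the filaments of simple epithelia, rose together. KRT8 stood at 898 and 884 CPM in DMSO and at 3246 and 2093 CPM in TEP. TFAP2C (1.18), GATA2 (2.31), EYA2 (1.73), GRHL2 (0.77), EPCAM (0.87) and CDH1 (0.47), besides MSX1 and MSX2, completed the 13. Genes of the same list that did not pass included DLX5 at 52.1 and 75.9 CPM in DMSO and 78.7 and 49.1 CPM in TEP, and TP63 at 5.24 and 4.08 CPM in DMSO and 3.72 and 3.29 CPM in TEP. KRT5 and KRT14, keratins of stratified epithelium, were too low to be tested. Without TEP replicate 1, 9 of the 13 did not pass, with edgeR adjusted p from 0.054 to 0.531. Without DMSO replicate 1, 4 did not pass (0.0535 to 0.0978), and without DMSO replicate 2 CDH1, EPCAM, EYA2 and MSX1 did not (0.0543 to 0.0812).

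Of the amnion and trophoblast list, 5 of 14 tested members were higher and none was lower, with a median of 0.96. HAND1, a helix-loop-helix factor of amnion and extraembryonic mesoderm, stood at 0.462 and 0.204 CPM in DMSO and at 95.4 and 11.2 CPM in TEP (7.30, SE 1.85, edgeR adjusted p = 0.00147). ISL1, a LIM homeobox factor, stood at 1.64 and 0.459 CPM in DMSO and at 106 and 25.1 CPM in TEP (5.95, SE 1.22). Both TEP libraries were above both DMSO libraries, but replicate 1 was several times above replicate 2. The same held for TBX3 at 49.7 and 5.65 CPM in TEP, for KRT7 at 70.5 and 16.3 CPM and for VTCN1 at 10.1 and 0.784 CPM. Of the 5 genes, ISL1 alone passed without TEP replicate 1 (log2 fold change 4.57, edgeR adjusted p = 0.0491). HAND1 then had a log2 fold change of 5.05 and an adjusted p of 0.0758. KRT7, TBX3 and VTCN1 also did not pass without DMSO replicate 1 (0.0957 to 0.148), nor VTCN1 without DMSO replicate 2 (0.122). The list summed to 565 CPM in TEP replicate 1 and 145 CPM in replicate 2, beside 119 and 133 CPM in DMSO. CGA, GCM1 and ELF5, genes of trophoblast, did not pass, and CDX2 was too low to be tested.

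Of the neural ectoderm list, 12 of 25 members were lower in TEP and 1 was higher, with a median of -1.58. SIX3, a regulator of the anterior neural plate, stood at 289 and 486 CPM in DMSO and at 46.3 and 77.2 CPM in TEP (-2.65, SE 0.54, edgeR adjusted p = 0.00339). FEZF1, a repressor of the forebrain, fell from 166 and 258 CPM to 11.6 and 16.6 CPM (-3.91, SE 0.79). SOX2, shared by stem cells and neural ectoderm, fell from 579 and 533 CPM to 221 and 358 CPM (-0.94, SE 0.20). In all 3 genes the lower DMSO library was above the higher TEP library, with TEP replicate 1 the lowest. The eye field genes RAX (-3.84) and LHX2 (-4.14) fell, as did HESX1 (-3.11), POU3F1 (-2.40), SOX3 (-1.89), ZIC1 (-3.81), ZIC2 (-1.58), ZIC5 (-1.46) and OTX2 (-0.87). OTX1 rose by 2.31, from 9.20 and 8.82 CPM to 61.5 and 27.8 CPM. PAX6, a regulator of neural and eye development, stood at 23.5 and 35.9 CPM in DMSO and at 4.33 and 4.76 CPM in TEP and did not pass (-2.71, edgeR adjusted p = 0.0527). LHX5 stood at 351 and 349.7 CPM in DMSO and at 142 and 296 CPM in TEP and did not pass either. SOX1 was near 0 in all 4 libraries, between 0.204 and 0.360 CPM. None of the 13 calls held without TEP replicate 1, with edgeR adjusted p from 0.0663 to 0.242. LHX2 did not pass without any 1 of the 4 libraries (0.05 to 0.242), and OTX2 did not pass without DMSO replicate 1 (0.112). The list summed to 1088 CPM in TEP replicate 1 and 1747 CPM in replicate 2, against 2889 and 3298 CPM in DMSO.

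**Figure D2:**
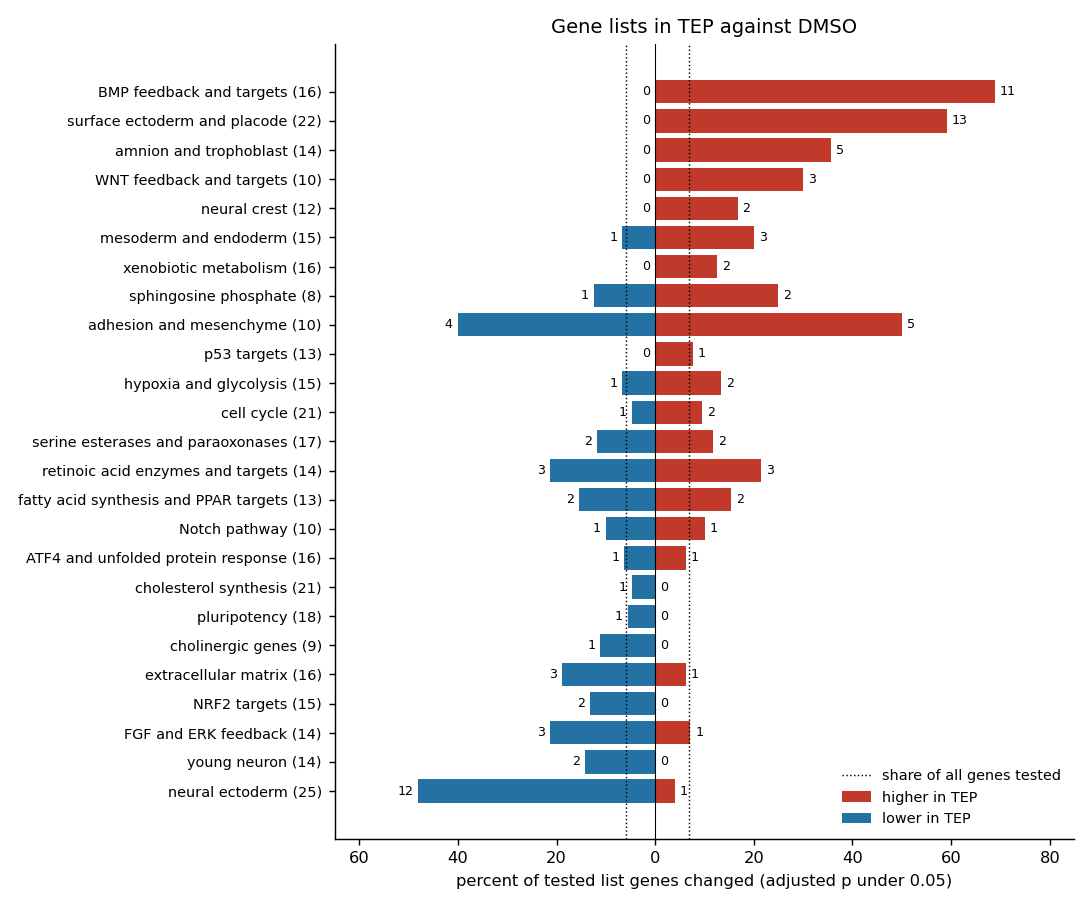
Share of the tested members of each gene list that changed in TEP against DMSO, in percent, to the right for higher and to the left for lower, with the number of genes at each bar and the number tested in brackets. The dotted lines are the shares of all 16113 genes, 6.78% higher and 5.89% lower, and BMP feedback with 11 of 16 higher and neural ectoderm with 12 of 25 lower reach farthest to each side.

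Genes of junctions and of mesenchyme moved in both directions. The adhesion list had 5 of 10 members higher and 4 lower, beside 6.78% and 5.89% of all genes tested. CDH2, the neural cadherin, fell from 55.2 and 61.0 CPM to 17.1 and 20.3 CPM (-1.64, SE 0.32, edgeR adjusted p = 0.00206), and CDH11 (-1.26), VIM (-0.89) and ITGA6 (-0.57) fell too. CDH1, the epithelial cadherin, rose from 362 and 349.8 CPM to 509.5 and 474 CPM, and TJP1 (0.77), ITGB4 (0.81), EPCAM (0.87) and CDH3 (0.27) rose. TJP1 alone of these 9 passed whichever library was left out. Without TEP replicate 1 the other 8 did not pass, with edgeR adjusted p from 0.0691 (CDH2) to 0.305 (ITGA6). Without DMSO replicate 1, 5 of the 9 did not pass (0.0978 to 0.303), without DMSO replicate 2 CDH1 and EPCAM did not (0.061 to 0.0812), and without TEP replicate 2 CDH3 and VIM did not (0.0514 to 0.114).

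The counts for markers of other lineages can be read against the 12.7% of all genes tested that changed. Of 12 neural crest genes, ERBB3, a receptor of neuregulins, rose from 53.4 and 55.2 CPM to 111 and 94.9 CPM (0.92, SE 0.15, edgeR adjusted p = 0.000423). TWIST1 rose from 0.976 and 0.204 CPM to 4.95 and 3.87 CPM (2.89, SE 0.62). ERBB3 and TWIST1 passed whichever library was left out. SOX10 (-0.40), FOXD3 (-0.66) and PAX3 (-0.52) did not pass. Of 15 tested mesoderm and endoderm genes, FOXC1 (2.35), GATA6 (3.74) and MIXL1 (1.54) rose and KDR fell from 64.8 and 69.1 CPM to 15.6 and 31.8 CPM, all 4 of them lost without TEP replicate 1 (edgeR adjusted p from 0.118 to 0.613). GATA6 and MIXL1 were at or below 4.64 CPM in all libraries. SOX17, FOXA2, CER1 and GATA4 were too low to be tested, and TBXT lay between 0.153 and 0.514 CPM. Of 14 tested genes of young neurons, STMN2 fell from 12.5 and 12.1 CPM to 1.12 and 0.784 CPM (-3.68, SE 0.71), whichever library was left out, and MAP2 fell by 2.42, with calls lost without TEP replicate 1 (edgeR adjusted p = 0.191), TEP replicate 2 (0.0621) and DMSO replicate 2 (0.11). TUBB3 and DCX did not pass. Of 18 tested pluripotency genes USP44 fell by 1.38, a call lost without TEP replicate 1 (0.167) and without DMSO replicate 1 (0.0705). NANOG stood at 54.4 and 34.6 CPM in DMSO and at 21.5 and 32.0 CPM in TEP and did not pass.

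The other signalling lists were mixed, and their counts can be read against the 12.7% of all genes tested that changed. FGFR3, a receptor tyrosine kinase, rose from 294 and 251 CPM to 411 and 507 CPM (0.75, SE 0.15, edgeR adjusted p = 0.00236) and kept its call whichever library was left out. In the same list of 14 FGF and ERK feedback genes, FGF8 (-3.50), ETV1 (-1.02) and SPRY1 (-1.24) fell. Of 14 retinoic acid genes, the receptor RARB (2.60), the degrading enzyme CYP26C1 (1.45) and the retinol receptor STRA6 (0.51) rose, while the synthesising enzyme ALDH1A2 (-2.44) and the binding protein CRABP1 (-0.91) fell. Of 10 WNT feedback genes and targets, NOTUM (1.40), RNF43 (0.83) and TCF7 (0.45) rose, and AXIN2 stood at 32.4 and 25.1 CPM in DMSO and 28.6 and 28.7 CPM in TEP. Of 10 Notch genes, the ligand DLL1 rose by 1.02 and DLL3 fell by 1.13. Of the called genes named here from these 4 lists, FGFR3 and DLL1 alone passed without TEP replicate 1, and the others then had edgeR adjusted p from 0.0549 to 0.551. DLL1 did not pass without TEP replicate 2 (0.144), DMSO replicate 1 (0.124) or DMSO replicate 2 (0.0526). In the sphingosine phosphate list of 8 genes, besides SPHK1, the second kinase SPHK2 rose by 0.34 and the receptor S1PR3 fell by 2.12 (SE 0.45). Neither SPHK2 (edgeR adjusted p = 0.245) nor S1PR3 (0.0964) passed without TEP replicate 1, and SPHK2 passed in none of the 4 fits that left out a library (0.057 to 0.286).

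Organophosphates of other kinds are known as inhibitors of serine esterases, among them acetylcholinesterase. Of 17 tested serine esterases and paraoxonases, 2 were higher and 2 were lower in TEP (11.8% each way), with a median of -0.04. Of all genes tested, 6.78% were higher and 5.89% lower. ACHE, acetylcholinesterase, stood at 9.09 and 10.6 CPM in DMSO and at 14.5 and 14.1 CPM in TEP (0.54, SE 0.15, edgeR adjusted p = 0.0137). PNPLA7 (1.64) rose, and ABHD6 (-0.42) and PON1 (-2.11), an esterase that hydrolyses organophosphates, fell. PON1 and PNPLA7 were at or below 1.57 CPM in all 4 libraries. None of the 4 calls held without TEP replicate 1 (edgeR adjusted p from 0.107 to 0.276) or without DMSO replicate 1 (0.0712 to 0.253). PNPLA6, the neuropathy target esterase, stood at 89.0 and 95.6 CPM in DMSO and at 88.9 and 114 CPM in TEP and did not pass. Of 9 tested cholinergic genes the receptor subunit CHRNA5 fell by 0.54, a call lost without TEP replicate 1 (0.307), DMSO replicate 1 (0.102) or DMSO replicate 2 (0.11).

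The lists of stress and metabolism were read against the same shares of all genes, 6.78% higher and 5.89% lower. Of 16 tested genes of xenobiotic metabolism, 2 were higher (12.5%) and none was lower, close to the 12.7% of all genes that changed. CYP1B1, a cytochrome P450 that the aryl hydrocarbon receptor can induce, rose from 4.52 and 3.57 CPM to 23.2 and 17.5 CPM (2.33, SE 0.42, edgeR adjusted p = 0.00115) whichever library was left out. CYP1A1, another target of that receptor, was at 0.565 and 0.459 CPM in DMSO and at 0.102 and 0.157 CPM in TEP and did not pass. CYP1A2 (-0.28), TIPARP (-0.56), AHRR (0.49) and the receptor gene AHR (-0.09) did not pass either. The exporter ABCG2 rose by 3.71 but did not pass without TEP replicate 1 (edgeR adjusted p = 0.256). Of 15 NRF2 targets, none rose, and FTH1 (-0.43) and TXNRD1 (-0.49) fell, both lost without TEP replicate 1 (0.08 to 0.0861). HMOX1 and NQO1 did not pass. Of 13 p53 targets PHLDA3 rose by 0.47, of 16 ATF4 and unfolded protein response genes CEBPB rose by 1.17 and HSPA5 fell by 0.51, and of 21 cholesterol synthesis genes CYP51A1 fell by 0.35. Of 21 cell cycle genes E2F1 (0.36) and MCM5 (0.41) rose and CCNB2 (-0.39) fell, and MKI67 stood at 266 and 267 CPM in DMSO and at 207 and 319.8 CPM in TEP. Of 13 tested fatty acid and PPAR genes, ELOVL6 (0.60) and PDK4 (2.77) rose and ANGPTL4 (-0.95) and FADS1 (-0.33) fell. Of 15 hypoxia genes NDRG1 (1.22) and PFKFB3 (0.40) rose and ANKRD37 (-3.25) fell. Of 16 matrix genes FN1 rose by 1.48, from 92.4 and 112 CPM to 364 and 205 CPM, and COL3A1 (-4.30), COL4A1 (-0.34) and TGFBI (-0.76) fell. In these last 7 lists no call held without TEP replicate 1, and the edgeR adjusted p-values were then between 0.0568 and 0.549. Over all lists, 18 of the 101 genes called passed whichever library was left out, 82 were lost without TEP replicate 1, 15 without TEP replicate 2, 45 without DMSO replicate 1 and 31 without DMSO replicate 2.

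The 2 TEP libraries differed from each other more than those of most groups. Between them, 417 of 16113 genes (2.59%) differed at least 2-fold on the scale of log2(CPM + 0.5), which gave TEP rank 3 among the 23 day 8 groups. Of these genes, 258 were higher in replicate 1. The DMSO pair had 129 such genes (0.801%), the TPHP pair 473 (2.94%) and the CYC pair 77 (0.478%). The median chi-square of the 2 counts was 8.35 times that of counting error in TEP and 6.73 times in DMSO. Replicate 1 was farther from the DMSO mean than replicate 2 for 885 of the 1092 higher genes (81%) and for 745 of the 949 lower genes (78.5%), beside 61% of all genes tested.

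Among genes with a mean of at least 5 CPM in TEP, the largest ratios of replicate 1 to replicate 2 were those of PHOSPHO2-KLHL23, CDRT4, MEIS1, BNC1, TEX49 and VTCN1. MEIS1, a homeobox cofactor, stood at 36.9 CPM in replicate 1 and 3.66 CPM in replicate 2, beside 0.719 and 0.969 CPM in DMSO. BNC1, a zinc finger gene of epithelia, stood at 9.99 and 0.680 CPM, beside 0.154 and 0.255 CPM in DMSO. PHOSPHO2-KLHL23, a read-through transcript, was at 19.0 CPM in replicate 1 and had no count in replicate 2, which allows up to 3 counts. The counting of a read-through transcript can shift between it and the genes it spans, and TEX49 and CDRT4 had no count in at least 1 DMSO library. In the other direction, SEZ6, a gene of neurons, stood at 2.80 CPM in replicate 1 and 12.2 CPM in replicate 2, beside 41.6 and 56.1 CPM in DMSO. FGFBP3 stood at 13.5 and 44.5 CPM, beside 119 and 89.6 CPM, and HES3, a repressor of neural progenitors, at 8.51 and 24.9 CPM, beside 55.5 and 60.6 CPM. MEIS1, BNC1, SEZ6, FGFBP3 and HES3 thus all had TEP replicate 2 between replicate 1 and the DMSO libraries. MUC4 (7.24 and 25.7 CPM), LOC107986113 (200.1 and 808 CPM) and LOC105377021 (3.16 and 9.83 CPM) were also lower in replicate 1, and there the DMSO libraries lay between the TEP libraries or near replicate 2.

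**Figure D3:**
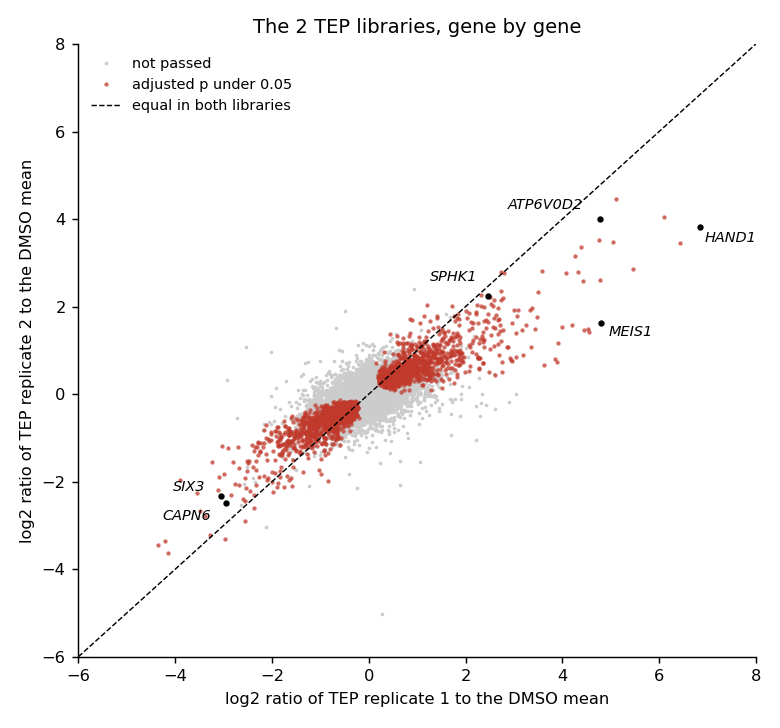
Each point is a gene, with the log2 ratio of TEP replicate 1 to the DMSO mean on the x axis and that of TEP replicate 2 on the y axis, with 0.5 CPM added, and red for the 2041 changed genes. Most changed genes lie on the replicate 1 side of the dashed line of equal ratios, as 885 of 1092 higher and 745 of 949 lower genes do, while SPHK1 and CAPN6 lie near it.

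What sets TEP apart from the other compounds was tested directly, without DMSO. Against the mean of ACE, CYC, IMI, TDCIPP and TPHP, 0 of 16113 genes passed by edgeR (0.00%) and 0 by DESeq2, and 285 had an unadjusted p under 0.05 (1.77%). Of the genes with an interval, 87.7% had the whole 95% interval of the difference within 1 log2 unit of 0. The same share was 72% for TEP against DMSO, where 2041 genes changed, so it does not show that the compounds match. The median SE was also smaller here, 0.129 against 0.166 for TEP against DMSO. Both TEP libraries lay above all 10 libraries of the other compounds for 91 genes (0.565%) and below all 10 for 106 genes (0.658%). Random order of the libraries alone would put some genes there, and that share was not counted, so neither count sets TEP apart. Without TEP replicate 1 a single gene passed, the read-through transcript PHOSPHO2-KLHL23, and without TEP replicate 2 ABCA7 and PABPC1L2A passed.

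The genes first by p in this comparison, none of which passed, give the size of what was seen. TRPV2, a cation channel, stood at 0.306 and 0.314 CPM in TEP (6 counts in each library), at 0.976 and 0.765 CPM in DMSO and between 0.621 and 1.31 CPM in the 10 other libraries. TEP minus the mean of 5 was -1.44 for TRPV2 (95% interval -2.13 to -0.75), with an adjusted p of 1 by edgeR. RUNX3, a Runt transcription factor, stood at 2.70 and 4.18 CPM in TEP and at 1.34 and 1.22 CPM in DMSO, and its difference was 0.97 (0.45 to 1.48). TPHP overlapped TEP for RUNX3, at 3.23 and 2.23 CPM. ABCG1, a cholesterol exporter, stood at 6.98 and 6.17 CPM in TEP, at 2.98 and 2.96 CPM in DMSO and up to 6.58 CPM elsewhere (0.50, 0.16 to 0.84). MSRB3, a methionine sulfoxide reductase, stood at 0.918 and 1.46 CPM in TEP, below 1.45 to 3.09 CPM in the other 10 libraries except for an overlap at the edge (-0.76, -1.21 to -0.31). TPMT, a methyltransferase, stood at 31.0 and 27.3 CPM in TEP, close to DMSO at 30.1 and 24.8 CPM (0.25, 0.10 to 0.41). PET117 (-0.40) and LOC107987373 (-0.76) were lower, and KCNK7 had 0 and 4 counts in TEP. TEX49 stood at 11.2 and 0.837 CPM in TEP, at 0 in DMSO and between 0 and 3.86 CPM in the other 10 libraries. CORO7-PAM16 stood at 0.459 and 2.14 CPM in TEP and at 0 in all of these except 1 TPHP library, so no fold is given for KCNK7, TEX49 or CORO7-PAM16.

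The levels of lead genes of TEP against DMSO were then set beside those of the other 5 groups. SPHK1 ranged from 16.4 to 30.7 CPM in the 10 other libraries, and its 5 differences from TEP ran from -0.11 (CYC, 95% interval -0.63 to 0.40) to 0.44 (ACE, -0.08 to 0.95). BAMBI ranged from 69.7 to 223 CPM there, with differences from -0.34 (CYC, -1.39 to 0.71) to 0.66 (IMI, -0.39 to 1.72). For ISL1 the intervals were wide, from -2.50 to 0.71 against CYC and from -0.96 to 2.28 against IMI. None of these differences passed, and intervals of this width leave differences of 2-fold or more unresolved for BAMBI and ISL1. Before adjustment, SIX3 was lower in TEP than in TDCIPP (95% interval of the difference -2.42 to -0.18). CDH2, of the adhesion list, was lower than in ACE (-1.38 to -0.04) and TDCIPP (-1.35 to -0.01). Neither gene passed after adjustment. Of all genes tested, 3.21% had an unadjusted p under 0.05 against ACE and 3.95% against TDCIPP. Against the mean of 5, 0 of 25 neural ectoderm genes and 0 of 10 adhesion genes had one. CDH2 and PTN had their lowest mean of the 6 compounds in TEP, but PTN was chosen for its fall in TEP. How many of all genes had their lowest mean in TEP was not counted, so this does not set TEP apart.

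**Figure D4:**
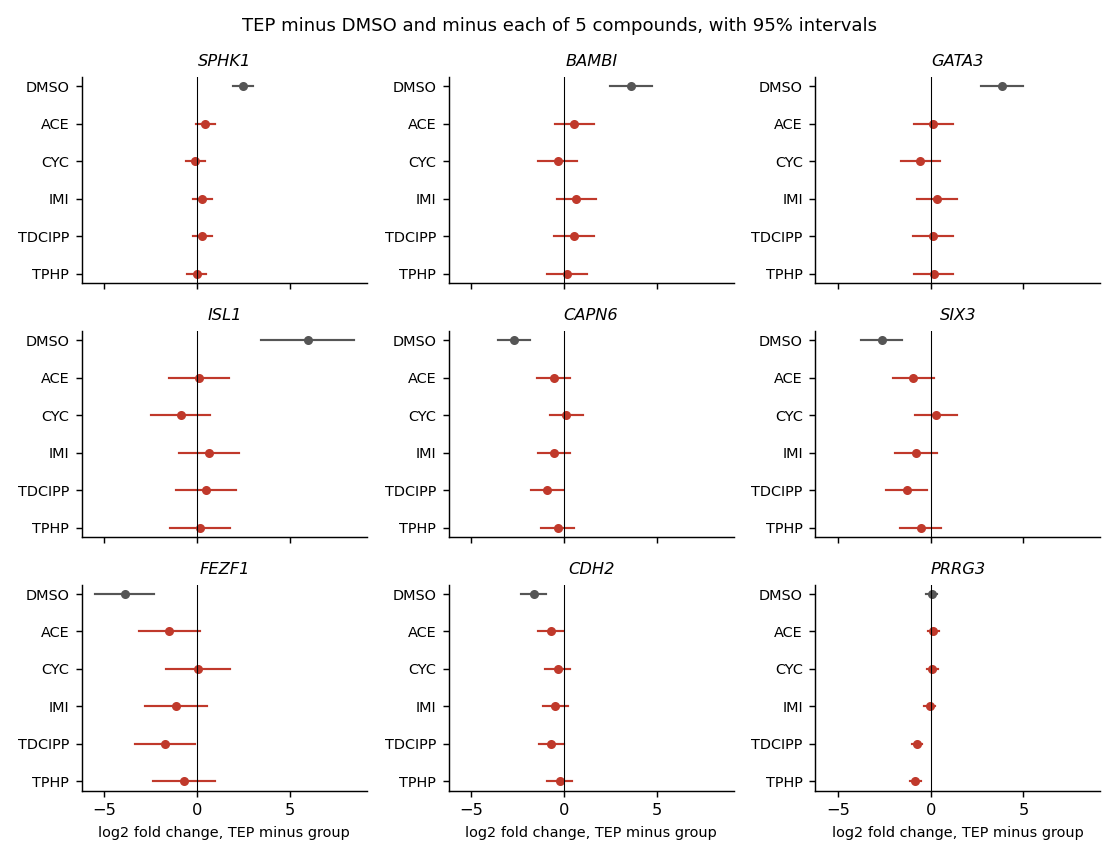
TEP minus DMSO (grey) and TEP minus each of the 5 compounds (red) as log2 fold changes with 95% intervals, for 9 genes. SPHK1, BAMBI and GATA3 lie away from 0 against DMSO and nearer 0 against the 5 compounds. For BAMBI the intervals against compounds leave differences of 2-fold or more unresolved. PRRG3 lies at 0.04 against DMSO and at -0.75 and -0.83 against TDCIPP and TPHP.

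The 5 pairs of compounds were compared gene by gene, and no gene passed by edgeR in any pair, whether p-values were adjusted within a pair (0.00% in each) or over all 5 pairs. Before adjustment, 518 genes had a p under 0.05 against ACE (3.21%), 1536 against CYC (9.53%), 190 against IMI (1.18%), 636 against TDCIPP (3.95%) and 279 against TPHP (1.73%). The whole 95% interval lay within 1 log2 unit of 0 for 80.3% of genes against ACE, 76.9% against CYC, 81.1% against IMI, 80.2% against TDCIPP and 81.6% against TPHP. Against DMSO it did so for 72% of genes. A missed threshold does not show that the compounds act alike, and doses are not known to match. By DESeq2, 2 genes passed against CYC, 1 against TDCIPP and 1 against TPHP.

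The single gene by which TEP differed from both other phosphate esters by DESeq2 was PRRG3, a transmembrane protein with a Gla domain. PRRG3 stood at 17.8 and 16.5 CPM in TEP, at 13.9 and 19.4 CPM in DMSO, at 26.2 and 31.3 CPM in TDCIPP and at 29.4 and 31.4 CPM in TPHP. ACE, CYC and IMI lay between 15.4 and 18.3 CPM. TDCIPP and TPHP thus stood above TEP, while TEP, like ACE, CYC and IMI, lay within the range of DMSO. A role of the ester arms was not tested. By edgeR the difference was -0.75 from TDCIPP (95% interval -1.04 to -0.45, adjusted p = 0.263) and -0.83 from TPHP (-1.12 to -0.53, adjusted p = 0.0564). By DESeq2 the adjusted p was 0.0168 and 0.00109. Against CYC, DCLK1, a kinase of neurons bound to microtubules, had the smallest p: TEP stood at 71.1 and 97.1 CPM and CYC at 35.1 and 49.3 CPM (1.00, 95% interval 0.62 to 1.37, edgeR adjusted p = 0.133, DESeq2 adjusted p = 0.00186). BOC, a hedgehog co-receptor, stood at 52.3 and 35.9 CPM in TEP and at 123 and 80.6 CPM in CYC (95% interval of the difference -1.71 to -0.69, DESeq2 adjusted p = 0.0157). DCLK1 and BOC did not overlap between TEP and CYC. Without TEP replicate 1 the count against CYC became 20 by edgeR, DCLK1 among them.

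Each of the other compounds has its own comparison with the same 2 DMSO libraries, so the counts are not independent of that of TEP. They were 1378 genes for ACE (8.55%), 4762 for CYC (29.6%), 1001 for IMI (6.21%), 1460 for TDCIPP (9.06%) and 1826 for TPHP (11.3%), beside 2041 for TEP. Of the 2041 genes, 543 passed in all 5 others in the same direction and 110 passed in none of them. None of all genes tested passed against the mean of the 5, so none of these 110 could be among them. Of the 110, 28 had an unadjusted p under 0.05 there by edgeR, beside 1.77% of all genes. The 110 were chosen for their change in TEP, so this share does not set TEP apart.

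A set of genes was therefore taken from libraries that enter neither side of TEP against DMSO. The mean of ACE, CYC, IMI, TDCIPP and TPHP differed from the mean of the 9 antioxidant groups in 10424 genes (64.7%), 32.2% higher and 32.5% lower, and at least 2-fold in 1054 genes (6.54%). The labels give no batches, so exposure and culture batch cannot be told apart in that contrast. The same holds for TEP against DMSO and for TEP against the other compounds. Of its 511 higher genes, 311 were also higher in TEP against DMSO (60.9%, beside 6.78% of all genes) and 0 were lower, with a median log2 fold change of 1.48. Of its 543 lower genes, 248 were lower in TEP (45.7%, beside 5.89%) and 0 were higher, with a median of -1.3. The total of 559 genes was 82 without TEP replicate 1, 604 without TEP replicate 2, 292 without DMSO replicate 1 and 369 without DMSO replicate 2.

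Library by library, the 511 genes had a median log2 ratio to the antioxidant mean of 1.51 in TEP replicate 1 and 0.86 in TEP replicate 2. The DMSO libraries stood at 0.12 and 0.10. The 543 genes stood at -1.22 and -0.85 in TEP and at -0.14 and -0.04 in DMSO. Both TEP libraries thus lay apart from both DMSO libraries in the set as a whole, with replicate 1 the farther. In the group TEP_S9, which received TEP with S9 (a term the labels do not explain), the 511 genes stood at 0.31 and 0.21 and the 543 genes at -0.48 and -0.39, between TEP and DMSO. Taken against the 9 antioxidant groups in place of DMSO, TEP changed 6026 genes (37.4%, with 18.9% higher and 18.5% lower), 1057 of them at least 2-fold (6.56%), while DMSO against those groups changed 1081 (6.71%, with 2.64% higher and 4.07% lower), with 14 at least 2-fold (0.0869%). Of the 2041 genes of TEP against DMSO, 1762 passed in the same direction against the antioxidant groups. Both comparisons use the same 2 TEP libraries, so this overlap is not an independent check. The antioxidant reference holds 18 libraries and DMSO 2, so the counts of 6026 and 2041 genes were not reached at the same precision.

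**Figure D5:**
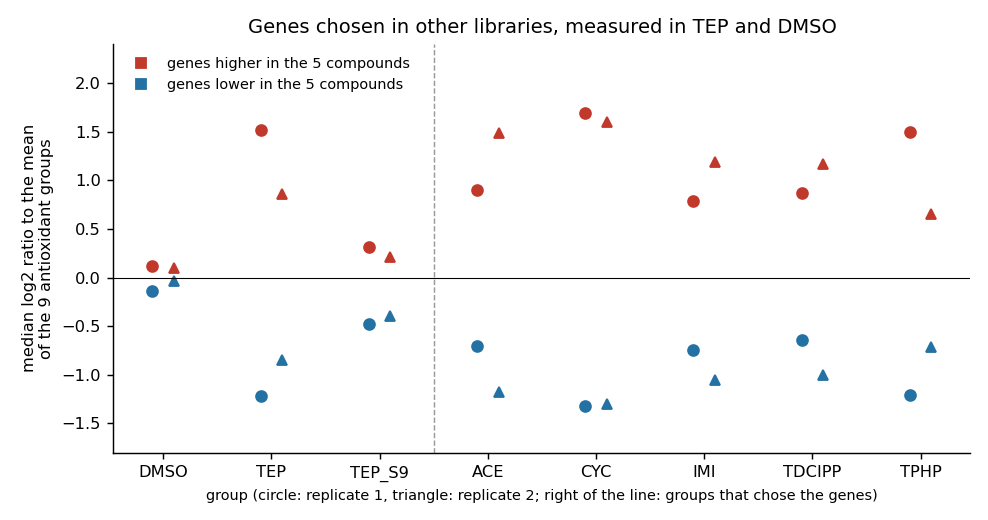
Median log2 ratio to the mean of the 9 antioxidant groups of the 511 genes higher (red) and the 543 genes lower (blue) in the mean of 5 compounds, per library, circles for replicate 1 and triangles for replicate 2. The TEP libraries stand at 1.51 and 0.86 for the higher genes and the DMSO libraries at 0.12 and 0.10, and the groups right of the dashed line chose the genes and are shown for their level.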

How the data were processed

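RNA of 48 libraries was enriched for polyadenylated RNA, fragmented, primed at random and sequenced on an MGI instrument, per the labels' protocols. The authors deposited 1 table of 19253 genes with expected counts (estimated read counts with decimals) per library (the unit is per the file headers). The genome build was GRCh38.p13, per the submitters' processing notes. Which tools aligned and counted the reads is not given in the sources used here. Another 96 columns of values per sample in other units were not used, and a comparison of TEP in the authors' deposited table is not analysed here.

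Expected counts were rounded before the fit, and 43.4% of the values were not whole. In R 4.3.3 with edgeR 4.0.16, 46 day 8 libraries (23 groups of 2) were fitted together after filterByExpr (16113 genes kept) and TMM scaling, with 1 coefficient per group and 23 residual degrees of freedom, and tested with glmQLFTest. The common biological coefficient of variation was 12.5%. P-values were adjusted by Benjamini-Hochberg over all genes, and genes under 0.05 after adjustment were called changed. SE and 95% intervals come from the fitted weights and the moderated dispersion. The spread is shared over all groups. DESeq2 1.42.0 was an alternative. Depth of 17918867 to 20096130 counts per library and the 2 libraries per group set the precision, and a count of 0 allows up to 3 counts, for counting error only.

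Genes named for TEP against DMSO were taken from the 658 that passed 4 conditions: a call, a change of at least 2-fold, at least 1 CPM on average where higher, and libraries that did not overlap. They were ranked by p, 15 each way. For the mean of the 5 compounds the first 5 each way were taken, for each pair the first 3 and for the ratio of the TEP libraries the first 6, of which a part is named. ABCA7 and PABPC1L2A were named after their values were seen. The members of 25 lists (390 genes, 94.6% tested) could be named too. Members, lists and comparisons were chosen with earlier results of these data known. The result of 1 list member is not reported here. No list test was made, and lists are described by counts and medians.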

Additional observations from a re-analysis of the deposited data

How the results depend on the processing

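Among the genes of the lists and the naming rule, none called in TEP against DMSO changed direction under the alternatives run, while some that did not pass, such as MKI67, POU5F1 and CGA without TEP replicate 1, did. The 2041 genes changed in TEP against DMSO became 653 when only the groups compared were fitted (598 of them shared) and 6026 with the 9 antioxidant groups as control, and they ranged from 206 to 2463 when 1 library was left out. DESeq2 size factors gave 2023, no filter on low counts 1877 and DESeq2 2202. Without TEP replicate 1 and DMSO replicate 1 together, an alternative chosen after seeing the data, 2 genes were left, with 1 sample a group assumed to vary like the other groups. Of the genes of the other 5 compounds, 559 changed in TEP, 82 to 604 when 1 library was left out, 1 without TEP replicate 1 and DMSO replicate 1, and 1877 of 10424 without the 2-fold limit. Against the mean of 5 compounds, 0 genes became 0 to 2 when 1 library was left out. Against ACE this was 0 to 1, against CYC 0 to 20, against TDCIPP 0 to 2 and against TPHP 0 to 3. DESeq2 gave 2 against CYC, 1 against TDCIPP and 1 against TPHP. The 2.59% of genes past 2-fold between the TEP libraries became 1.16% with a pseudocount of 2 CPM and 1.73% over genes of at least 5 CPM.

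The replicate numbers were not taken to pair the samples: deviations of replicate 1 in TEP and DMSO had a correlation of -0.0802 over 14326 genes, and with TEP the 5 compounds ranged from -0.324 (ACE) to 0.372 (CYC) and 0.608 (TPHP). With a replicate block, 2344 genes changed in TEP against DMSO, and PRRG3 passed by edgeR against TDCIPP (1 gene, adjusted p = 0.013) and TPHP (1 gene, adjusted p = 0.002). The cause of these differences was not tested. With 2 libraries per group, no library can be tested against the other.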

Other observations

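Some families outside the lists were looked at after their values were seen, so their counts are a description with no test of the family. The shares of all genes tested to set beside them are 6.78% higher and 5.89% lower. Some receptors, antagonists and ligands of the WNT pathway changed in TEP against DMSO. FZD5, a frizzled receptor of the eye field, stood at 687 and 821 CPM in DMSO and at 134 and 255 CPM in TEP (log2 fold change -1.96, edgeR adjusted p = 0.00405). Of 10 frizzled genes, FZD2, FZD5, FZD8 and FZD9 fell and none rose. The co-receptor LRP5 rose from 69.8 and 76.7 CPM to 95.8 and 95.7 CPM (0.39, edgeR adjusted p = 0.0256), a call lost without TEP replicate 1 (0.155), TEP replicate 2 or DMSO replicate 1, and LRP6 did not pass. Of 8 tested secreted WNT antagonists, SFRP1 fell from 503 and 629 CPM to 80.8 and 194 CPM (-2.04) and FRZB from 161 and 174 CPM to 29.0 and 57.9 CPM (-1.95). Without TEP replicate 1 none of these 4 receptors and 2 antagonists passed, FRZB with an adjusted p of 0.0764 and SFRP1 with 0.089. Of 15 tested WNT ligands, WNT6 rose from 1.80 and 0.969 CPM to 61.5 and 20.5 CPM (4.88, edgeR adjusted p = 0.000816) whichever library was left out. WNT4 (1.61) and WNT9B (1.25) rose but did not pass without TEP replicate 1, DMSO replicate 1 or DMSO replicate 2.

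Among homeobox genes, IRX3 rose from 15.2 and 13.7 CPM to 98.6 and 76.3 CPM (2.60). IRX5 rose from 4.37 and 2.65 CPM to 22.2 and 18.3 CPM (2.53). HMX1 rose from 0.616 and 0.306 CPM to 25.6 and 10.6 CPM (5.28). These 3 passed whichever library was left out. IRX1, IRX2 and IRX4 did not pass, nor did HMX2 (-0.54) and HMX3 (-0.24). Of 5 tested IRX genes 2 rose, of 3 HMX genes 1 and of 6 tested NKX genes 5. None of these families had a gene called lower, beside 6.78% of all genes tested higher and 5.89% lower. All 5 NKX calls were lost without TEP replicate 1. NKX2-5, a factor of heart and pharyngeal tissue, stood at 0.411 and 0.408 CPM in DMSO and at 39.3 and 6.12 CPM in TEP (5.77), and did not pass without TEP replicate 1 (adjusted p = 0.0889). EPAS1, a hypoxia-inducible factor subunit, stood at 3.39 and 3.62 CPM in DMSO and at 347 and 43.4 CPM in TEP, the same contrast between the TEP libraries, while HIF1A stood between 214 and 226 CPM in all 4 libraries. EPAS1 did not pass without TEP replicate 1 (adjusted p = 0.121) or without DMSO replicate 1. IFI16, a DNA sensor, rose from 7.40 and 7.29 CPM to 168 and 46.6 CPM, while IFIT1 fell, and both passed whichever library was left out. IFIT5 fell from 6.52 and 5.76 CPM to 1.84 and 2.25 CPM, a call lost without TEP replicate 1 (adjusted p = 0.0874), and IFIT3 did not pass.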
